A study of Mus musculus with 20 samples.

Results

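The apolipoproteins examined here are 10 genes of the mouse liver, Apoa1, Apoa2, Apoa4, Apoa5, Apob, Apoc1, Apoc2, Apoc3, Apoe and Apom, of the 18193 genes that the array reads through at least 1 probe set naming a single gene. They were chosen by name, and of the 16 probe sets that name a member, 10 were used, the one with the highest mean log2 intensity for each gene. The study measured 20 individual livers, 5 in each of 4 groups, on Affymetrix Mouse430 2.0 arrays: Scd1-/- mice on the very-low-fat (VLF) diet TD03045 of Harlan Teklad, Scd1+/+ mice on that diet, Scd1-/- mice on chow and Scd1+/+ mice on chow. Scd1 encodes stearoyl-CoA desaturase, the enzyme that makes monounsaturated fatty acids. The sources used here do not give strain, sex, age or time on the diet.

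Apolipoproteins are the proteins that package lipid for transport in blood. Apob is the scaffold of the triglyceride-rich particles that the liver secretes, and Apoa1 and Apoa2 are the main proteins of high-density lipoprotein (HDL). The exchangeable members on the particle surface set its fate, as Apoc2 activates lipoprotein lipase, Apoc3 and Apoc1 restrain lipolysis and uptake, Apoa5 promotes lipolysis, and Apoe is the ligand for receptors of the LDL receptor family.

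The 4 start-site windows below are shown because they belong to the pair of genes that rose most on the diet (Apoa4 and Apoc2), to the member whose fall had the smallest adjusted p (Apoa2), and to Apoa1, which lies in the same chromosome 9 group as Apoa4. Each runs 5′ to 3′ on the gene's strand from 250 bases before to 50 bases after a RefSeq transcription start (build GRCm38.p6). Apoa4 is at chr9:46240594-46240893 on the plus strand, Apoc2 at chr7:19677892-19678191 on the minus strand, Apoa2 at chr1:171221314-171221613 on the plus strand and Apoa1 at chr9:46228380-46228679 on the plus strand. Capitals mark AGGTCA, a short site that many nuclear receptors read, on either strand.
Apoa4: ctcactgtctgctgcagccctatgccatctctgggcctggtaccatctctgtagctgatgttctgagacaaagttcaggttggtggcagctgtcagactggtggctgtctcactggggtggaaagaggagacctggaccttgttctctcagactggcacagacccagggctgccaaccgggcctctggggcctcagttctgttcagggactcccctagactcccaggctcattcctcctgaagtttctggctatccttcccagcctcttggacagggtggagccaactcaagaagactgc
Apoc2: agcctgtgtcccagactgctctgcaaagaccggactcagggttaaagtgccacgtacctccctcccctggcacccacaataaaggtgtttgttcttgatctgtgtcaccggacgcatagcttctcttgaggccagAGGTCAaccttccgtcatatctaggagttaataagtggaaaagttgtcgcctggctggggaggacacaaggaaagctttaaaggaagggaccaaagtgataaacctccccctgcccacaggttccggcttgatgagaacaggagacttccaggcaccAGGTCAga
Apoa2: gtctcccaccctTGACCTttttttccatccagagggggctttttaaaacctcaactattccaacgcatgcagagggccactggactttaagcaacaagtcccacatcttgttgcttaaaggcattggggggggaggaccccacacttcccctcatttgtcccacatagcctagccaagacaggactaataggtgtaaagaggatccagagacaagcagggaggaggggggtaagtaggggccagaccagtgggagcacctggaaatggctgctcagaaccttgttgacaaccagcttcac
Apoa1: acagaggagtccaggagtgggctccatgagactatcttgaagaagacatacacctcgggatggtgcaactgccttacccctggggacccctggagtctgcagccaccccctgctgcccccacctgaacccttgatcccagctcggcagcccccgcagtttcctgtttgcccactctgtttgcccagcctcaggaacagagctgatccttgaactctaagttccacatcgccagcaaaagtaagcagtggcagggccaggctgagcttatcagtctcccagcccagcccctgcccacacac
Windows were found for 8 of the 10 members, 12 windows in all. AGGTCA lay in 2 of the 12, those of Apoc2 and Apoa2 shown above, against 16.3% of all 32851 windows of the table. On both strands, the HNF4A letters CAAAGTCC lay in 0 of the 12 (1.42% of all windows) and the CREB core TGACGT in 0 of the 12 (7.51% of all windows). The forkhead core TGTTTAC lay in 2 of the 12 (3.65% of all windows), 1 of Apoe and a second window of Apoa2. The E-box CCACGTG lay in both Apoa5 windows, which overlap, and in 3.88% of all windows.

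The knockout label was borne out by Scd1 itself, which had 27.1 to 36.9 units in knockout VLF livers and 16848 to 20348 in wild-type VLF livers, and 29.2 to 57.9 in knockout chow livers and 6460 to 10331 in wild-type chow livers. The hepatocyte list, with Alb and Ttr among its 8 measured genes, summed to 96240 to 101577 units in knockout VLF livers, 98933 to 102738 in wild-type VLF livers, 101477 to 103337 in knockout chow livers and 99463 to 103085 in wild-type chow livers. Bright genes dominate this sum, and Alb had 24366.4 units with an SD of 0 in both VLF groups, so the sum can move little. The array's actin 3′ to 5′ signal ratio, a sign of RNA quality, averaged 1.82 ± 0.114 in knockout VLF livers, 2.19 ± 0.198 in wild-type VLF livers, 2.25 ± 0.124 in knockout chow livers and 2.70 ± 0.238 in wild-type chow livers (SD, n = 5 each). Its part in the differences below was not tested. Values are normalized array intensities, and changes are log2 differences with their standard error from 1 limma fit of all 20 arrays. A gene was called where its p, adjusted by the Benjamini-Hochberg method over all probe sets, was under 0.05. The number of arrays limits the precision, and these p-values reflect the spread between individual livers. Of the hepatocyte list, Asgr1 (-0.76), Hnf4a (-0.31) and Fgb (-0.17) were called lower in knockout than in wild-type VLF livers, and Ambp (0.14) higher. With arrays centred on the hybridization controls spiked into every sample, Hnf4a (-0.08) and Fgb (0.02) were not called.

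On the VLF diet 7 of the 10 members differed by genotype, a share near that of other bright genes. Apoa4 and Apoc2 rose in both genotypes relative to chow, Apoc2 more so in the knockout. Apoa2, Apob, Apoa5 and Apoc1 were 1.24-fold to 1.40-fold lower in knockout VLF livers than in wild-type VLF livers. With arrays centred on the hybridization controls this difference was called for Apoa2 alone, while median scaling and the deposited values kept each of these calls. That centring also had larger standard errors, 0.10 against 0.04 for Apoc1 and 0.14 against 0.06 for Apob. Between diets in the knockout Apoa5 was not called (-0.07), whereas Apoa2, Apob and Apoc1 were called lower. The brightest probe sets of Apoa1 and Apoe passed no test with quantile-normalized values floored at 16, and on chow none of the 10 genes differed between genotypes. With 16 added to each value in place of the floor, the diet change of Apoa1 in the knockout was called by limma (0.09, adjusted p = 0.0481). In livers, fewer cells of a type and less RNA per cell cannot be told apart.

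Between the genotypes on the VLF diet, 7 of 10 members were called, 2 higher and 5 lower, where 42.2% of all genes were called (19.2% higher and 23.0% lower). Among the 213 genes with a mean log2 intensity of at least 12, a level that 8 of the 10 members reach, 77.5% were called, so 7 of 10 is near the background of bright genes. The median change of the members was -0.02, against -0.06 over the 16187 measurable genes. Between diets in the knockout, 5 of 10 members were called, 2 higher and 3 lower, where 34.8% of all genes (17.0% higher and 17.7% lower) and 78.9% of the bright ones were called. Centring on the hybridization controls turned that split to 5 higher and 0 lower, as Apoa1, Apoc3 and Apoe gained calls and Apoa2, Apob and Apoc1 lost theirs, and it left 2 higher and 1 lower between genotypes on the VLF diet. The shares of all genes called under that centring were not counted for any comparison. It moved the median change of all measurable genes to 0.30 between diets in the knockout and to 0.13 between genotypes on the VLF diet. In wild-type livers the diet changed 2 of 10 members, both higher, where 1.58% of all genes (0.797% higher and 0.781% lower) and 6.57% of the bright ones were called. The genotype by diet interaction was called for 5 of 10 members, 1 higher and 4 lower, where 24.2% of all genes (12.1% in each direction) and 71.4% of the bright ones were called, and hybridization controls gave 2 higher and 0 lower. The chow comparison called 0 of 10 by limma, where 2.92% of all genes (1.23% higher and 1.70% lower) and 1.88% of the bright ones were called, and 1 member, Apom, had an unadjusted p under 0.05. The 5 livers of one group lay wholly above or below the 5 of the other for 6 of 10 members between genotypes on the VLF diet (30.1% of all genes), 6 of 10 between diets in the knockout (25.2%), 4 of 10 between diets in wild type (4.26%) and 0 of 10 between genotypes on chow (6.12%).

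**Figure D1:**
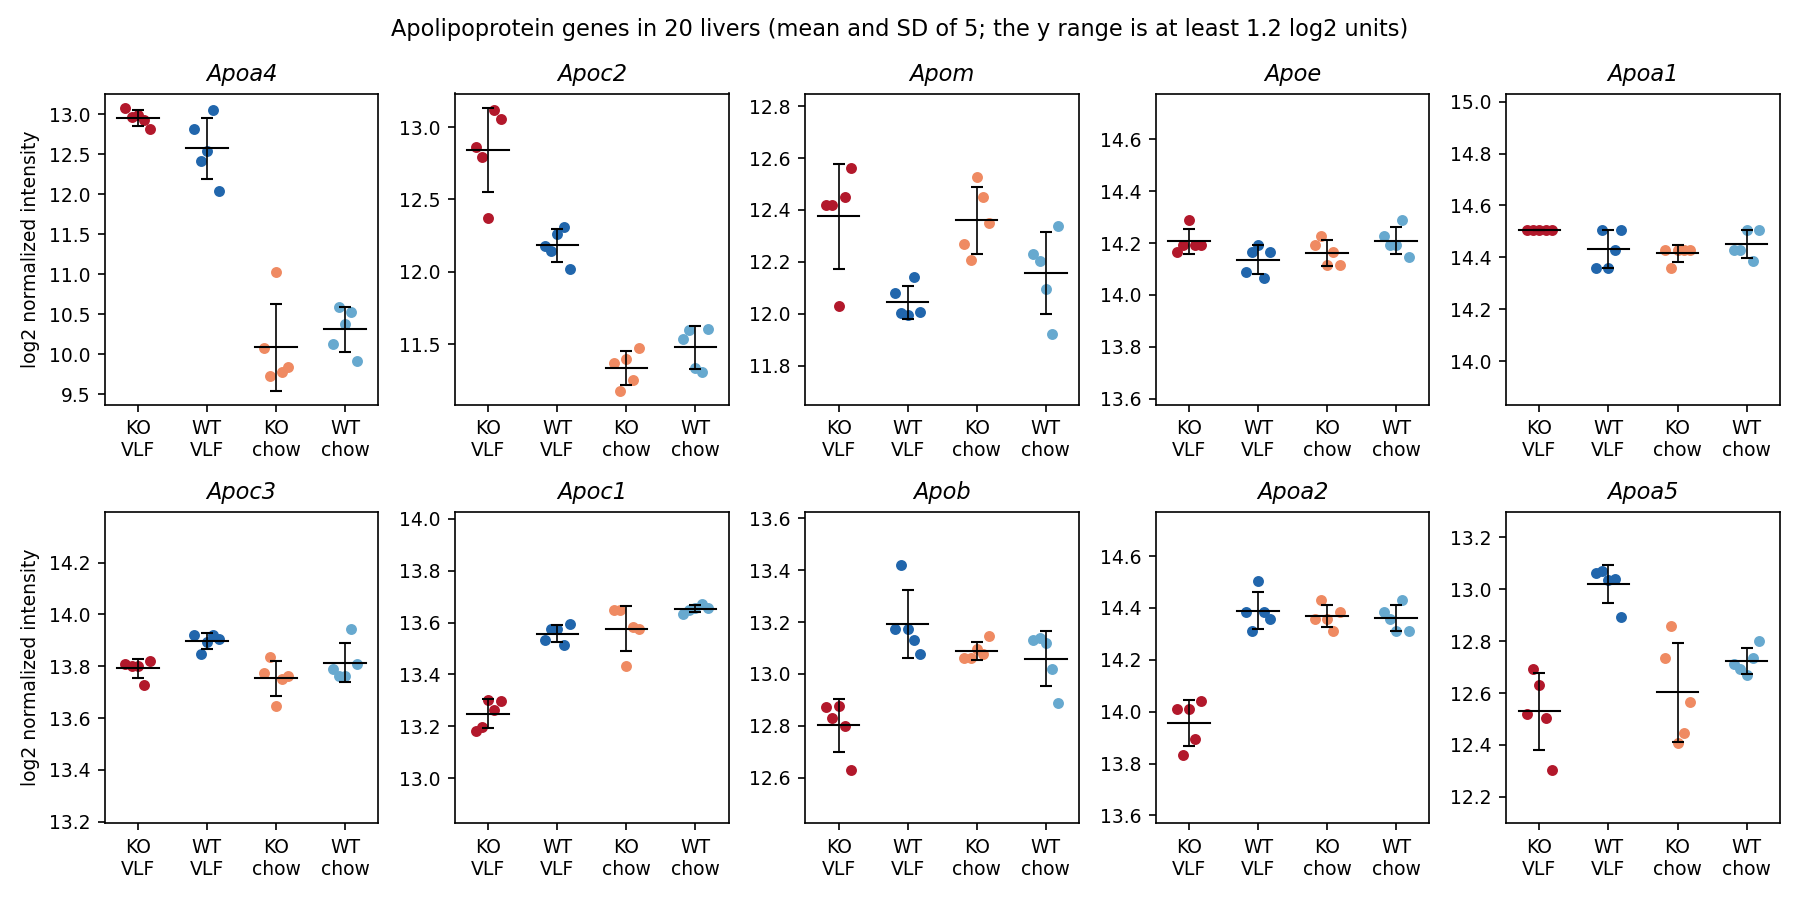
Log2 normalized intensity (y axis) of each apolipoprotein gene in 20 livers by group, with the mean (long line) and SD (bars) of 5 livers. Apoa4 and Apoc2 lie above their chow groups in every VLF liver, while Apoa2, Apoa5, Apob and Apoc1 of the knockout VLF livers lie below every wild-type VLF liver in these quantile-normalized values.

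Apoa4 showed the widest range of group means among the members, 2.87 log2 units. It encodes an apolipoprotein of chylomicrons and HDL that in rodents is made by both intestine and liver. Its 5 knockout VLF livers had 8685, 7982, 8144, 7775 and 7220 units, and the 5 wild-type VLF livers had 7193, 5459, 5979, 8513 and 4226. On chow the knockout livers had 1075, 849, 2094, 873 and 914 units, and the wild-type livers 1122, 1544, 1327, 1475 and 967. Every VLF liver of either genotype thus lay above every chow liver, and the genotypes overlapped on each diet.

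In the knockout, Apoa4 was 7.30-fold higher on the VLF diet than on chow (log2 change 2.87 ± 0.22, 95% interval 5.31-fold to 10.0-fold, adjusted p = 8.61e-09). In wild-type livers it was 4.81-fold higher (2.27 ± 0.22, 3.50-fold to 6.62-fold, adjusted p = 7.3e-05). The second Apoa4 probe set gave changes of 3.23 ± 0.25 in the knockout and 2.53 ± 0.25 in wild type. The genotype difference on the diet did not pass the test (0.38 ± 0.22, adjusted p = 0.212), nor did the interaction (0.60 ± 0.31, adjusted p = 0.238). Knockout chow replicate 3, at 2094 units, decided that last call: without it the interaction was 0.84 with an adjusted p of 0.0141.

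Markers of enterocytes, the other main source of Apoa4, were checked beside these values. Fabp6 and Lct were at the floor of 16 units on all 20 arrays. Of the 7 other enterocyte markers measured, 6 passed no test with quantile-normalized values, and their group means ran between 18.3 and 70.9 units. The last, Fabp2, the intestinal fatty acid binding protein, averaged 511.4 units in knockout VLF livers, 2376.1 in wild-type VLF livers, 749.1 in knockout chow livers and 1048.5 in wild-type chow livers. In the knockout between diets, where Apoa4 rose, Fabp2 fell (-0.58 ± 0.17, adjusted p = 0.014), or was -0.16 and not called with hybridization controls. In wild type between diets, where Apoa4 also rose, Fabp2 rose (1.19 ± 0.17, adjusted p = 0.0018). The part of enterocytes in the Apoa4 values was not tested.

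Apoc2, the cofactor that lipoprotein lipase needs to release fatty acids from triglyceride, was the member whose diet response differed most between the genotypes among those called. The 5 knockout VLF livers had 7448, 7096, 5312, 8894 and 8513 units, and the wild-type VLF livers 4640, 4530, 4916, 5087 and 4153. On chow the knockout livers had 2654, 2322, 2700, 2437 and 2850 units, and the wild-type livers 2975, 3107, 2585, 2534 and 3121. The knockout VLF livers lay above all wild-type VLF livers, which in turn lay above all chow livers, and the chow groups overlapped.

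The VLF diet raised Apoc2 2.84-fold in the knockout (1.5 ± 0.11, adjusted p = 5.85e-09) and 1.63-fold in wild type (0.71 ± 0.11, adjusted p = 0.00367). The difference between these responses passed the test (interaction 0.80 ± 0.16, adjusted p = 0.00105). On the diet Apoc2 was 1.58-fold higher in the knockout (0.66 ± 0.11, adjusted p = 0.000123), while on chow the difference was -0.14 ± 0.11 (adjusted p = 0.55). Centring each array on the hybridization controls left the wild-type change at 0.72 but raised its adjusted p to 0.0766.

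Macrophages also make Apoc2 and Apoe, so their markers stand beside these values. In knockout against wild-type VLF livers 11 of 12 macrophage and Kupffer cell markers rose, where 19.2% of all genes were called higher. The rises ran from 0.66 for Clec4f and 0.79 for Adgre1 to 3.93 for Gpnmb, with Cd68 at 2.32. The summed level of the list was 14902 to 24013 units in knockout VLF livers, 6093 to 7259 in wild-type VLF livers, 7418 to 10889 in knockout chow livers and 7436 to 8141 in wild-type chow livers. In wild type, where Apoc2 rose on the diet, the summed macrophage level on the diet lay below that on chow without overlap, and 1 of 12 markers, Lyz2, fell while 0 rose (Lyz2 -0.61, not called with hybridization controls, median scaling or the deposited values). The part of these cells in the rise of Apoc2 was not tested in either genotype.

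Apoa2, a main HDL protein, was lowest in the knockout VLF livers. Its 5 knockout VLF livers had 16501, 14607, 16501, 15220 and 16848 units, and the wild-type VLF livers 21407, 20348, 23258, 21407 and 21003. The knockout chow livers had 21003, 22063, 21003, 20348 and 21407 units, and the wild-type chow livers 21407, 21003, 20348, 22063 and 20348. All knockout VLF livers lay below every other liver, and the other groups overlapped. Apoa2 lies near the top of the array's scale, where values repeat in fixed steps after quantile normalization, which limits their precision.

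Apoa2 was 1.35-fold lower in knockout than in wild-type VLF livers (-0.43 ± 0.04, adjusted p = 4.08e-07). Centred on the hybridization controls this difference was -0.26 with an adjusted p of 0.046. Between diets in the knockout it was 1.33-fold lower (-0.41 ± 0.04, adjusted p = 8.16e-07), which became -0.10 and was not called when arrays were centred on the hybridization controls. In wild type the diet change was 0.03 ± 0.04, and the interaction was -0.44 ± 0.06 (adjusted p = 4.81e-05), or -0.08 and not called with hybridization controls.

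That scaling moves the whole distribution and so bears on every fall reported here. Centring on the hybridization controls shifted the median change of all measurable genes to 0.13 between genotypes on the VLF diet, to 0.30 between diets in the knockout and to 0.33 for the interaction. Under the quantile normalization used otherwise, these medians were -0.06, -0.03 and 0. The falls are therefore changes relative to the other genes of the same liver, and the scaling plot gives each member under 4 scalings.

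**Figure D2:**
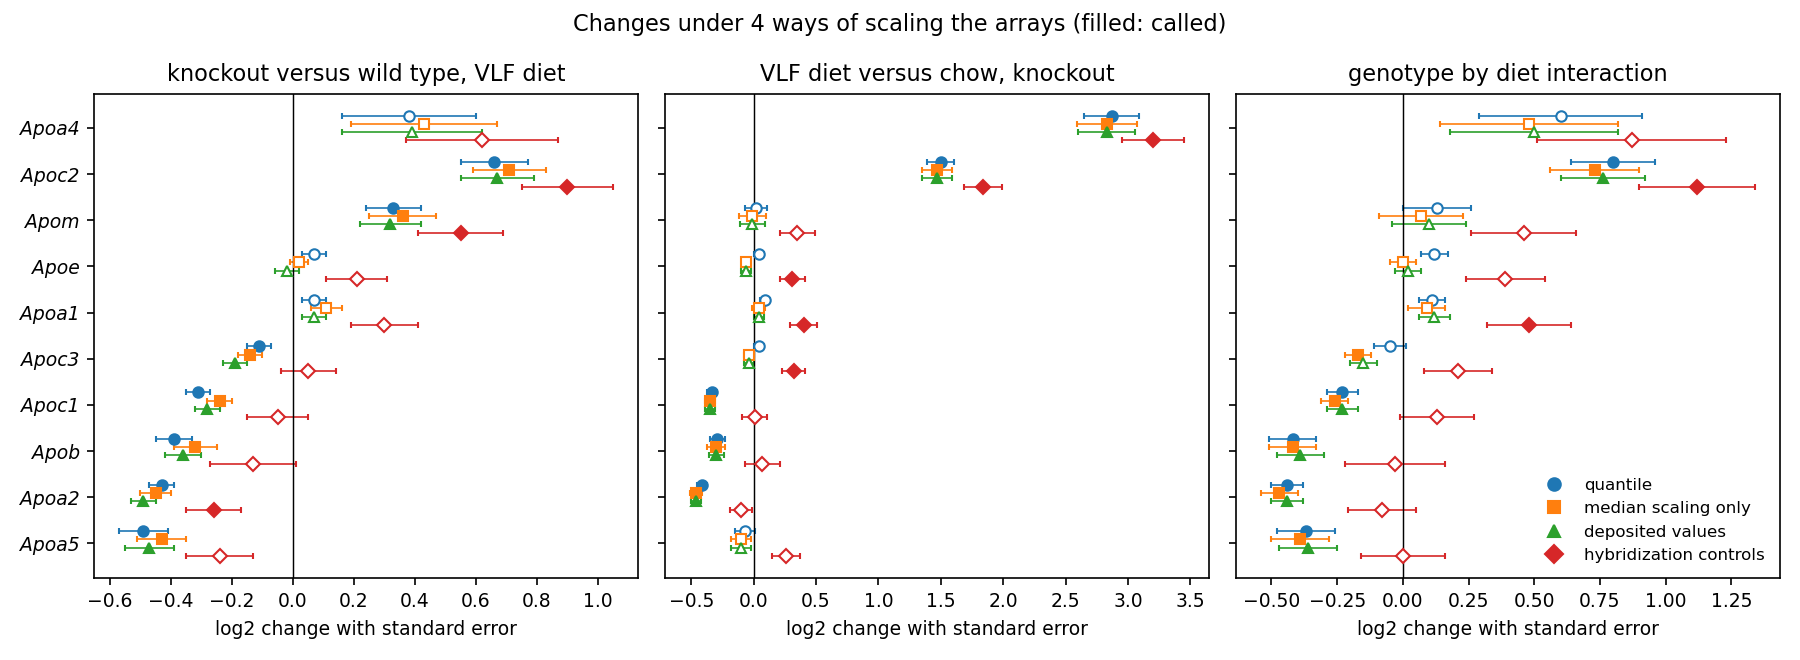
Log2 change with standard error (x axis) of each apolipoprotein gene (rows) in 3 comparisons under 4 ways of scaling the arrays, filled where called. Apoc2 is called in all 3 panels under each scaling, whereas the negative changes of Apob, Apoc1 and Apoa5 move toward 0 or above it with the hybridization controls.

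Apob, the structural protein of very-low-density lipoprotein, was also lowest in knockout VLF livers. The knockout VLF livers had 7506, 7272, 7528, 7119 and 6340 units, and the wild-type VLF livers 9228, 10952, 9228, 8975 and 8643. On chow the knockout livers had 8553, 8553, 8768, 8643 and 9062 units, and the wild-type livers 8975, 9016, 8894, 8304 and 7581. The knockout VLF livers lay below all other livers.

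For Apob the genotype difference on the diet was -0.39 ± 0.06, 1.31-fold lower (adjusted p = 7.61e-05), and -0.13 without a call with hybridization controls. The diet difference in the knockout was -0.29 ± 0.06 (adjusted p = 0.00176), which turned to 0.07 with hybridization controls. The interaction was -0.42 ± 0.09 (adjusted p = 0.00205), or -0.03 and not called with hybridization controls. A second, much dimmer Apob probe set gave -0.01 ± 0.21 between genotypes and 0.29 ± 0.21 between diets in the knockout, neither of them called.

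Apoa5 promotes the hydrolysis of triglyceride at the vessel wall and lies beside Apoa4. The knockout VLF livers had 5866, 6620, 6347, 5810 and 5057 units, and the wild-type VLF livers 8553, 8603, 8393, 8409 and 7606. The knockout chow livers had 6820, 7426, 5437, 5576 and 6066 units, and the wild-type chow livers 6718, 6620, 6511, 6820 and 7142. The wild-type VLF livers stood above every other liver, and the remaining groups overlapped.

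Apoa5 was 1.40-fold lower in knockout than in wild-type VLF livers (-0.49 ± 0.08, adjusted p = 8.42e-05), and -0.24 without a call with hybridization controls. Its diet change was -0.07 ± 0.08 in the knockout (adjusted p = 0.679) and 0.30 ± 0.08 in wild type (adjusted p = 0.0885). The interaction was called (-0.37 ± 0.11, adjusted p = 0.0275) but was 0.00 with hybridization controls. It was not called without knockout VLF replicate 5 (-0.31, adjusted p = 0.0515) or without knockout chow replicate 1 (-0.34, adjusted p = 0.0559).

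Apoc1, an inhibitor of lipoprotein uptake and lipolysis, had 9285, 9402, 10107, 9832 and 10059 units in knockout VLF livers and 11853, 12197, 12197, 11683 and 12357 in wild-type VLF livers. On chow it had 12828, 12828, 11047, 12276 and 12197 units in knockout livers and 12716, 12828, 12923, 13051 and 12923 in wild-type livers. The knockout VLF livers lay below all others. The genotype difference on the diet was -0.31 ± 0.04, 1.24-fold lower (adjusted p = 5.14e-06), and -0.05 without a call with hybridization controls. Between diets in the knockout it was -0.33 ± 0.04 (adjusted p = 2.68e-06), against 0.01 with hybridization controls, and in wild type it was -0.10 ± 0.04 (adjusted p = 0.312). The interaction of -0.23 ± 0.06 (adjusted p = 0.00548) turned to 0.13 with hybridization controls.

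**Figure D3:**
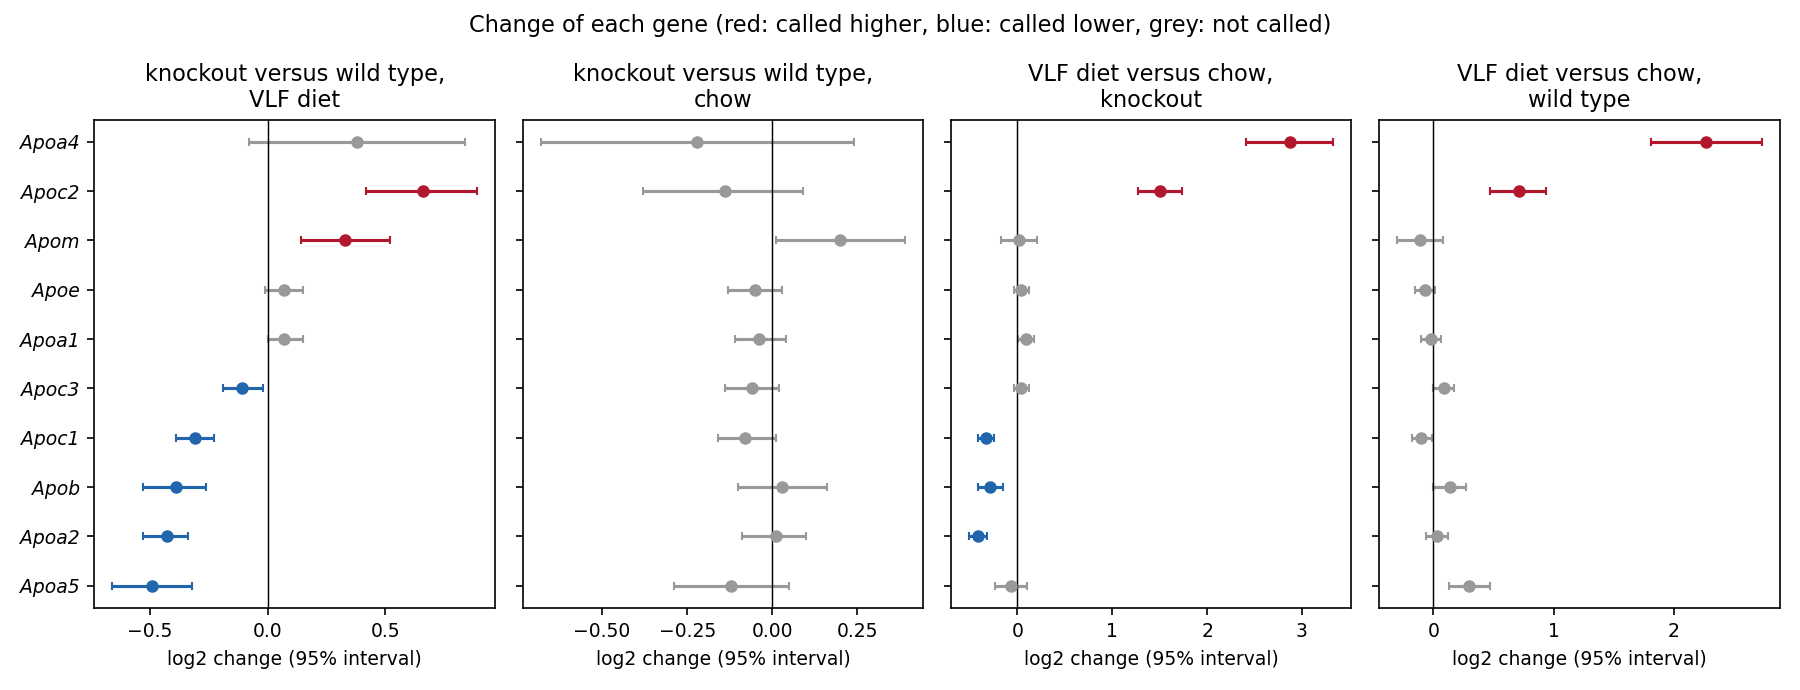
Log2 change with its 95% interval (x axis, a separate scale in each panel) of the 10 genes (rows) in 4 comparisons, red where called higher, blue where called lower and grey where not called. On chow all 10 genes are grey, and in wild type Apoa4 and Apoc2 alone are called between diets. Values are quantile-normalized, and with hybridization controls the blue points other than Apoa2 between genotypes are not called.

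Apoc3, which restrains lipoprotein lipase and particle clearance, differed only a little. It had 14365, 14273, 14273, 13563 and 14477 units in knockout VLF livers and 15519, 14751, 15220, 15519 and 15348 in wild-type VLF livers. These groups did not overlap, and the difference was -0.11 ± 0.04, 1.08-fold lower (adjusted p = 0.0483). The call held in 1 of the 10 fits that left out 1 of these arrays, with adjusted p up to 0.119, and hybridization controls turned the difference to 0.05. On chow Apoc3 ranged over 12828 to 14607 units in knockout livers and over 13887 to 15747 in wild-type livers, which overlapped (-0.06 ± 0.04, adjusted p = 0.446).

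Apom, the HDL protein that carries sphingosine-1-phosphate, was higher in the knockout on the diet. It had 5470, 5470, 4185, 5602 and 6049 units in knockout VLF livers and 4323, 4108, 4080, 4519 and 4112 in wild-type VLF livers. Knockout VLF replicate 3 fell within the wild-type range and the other four lay above it. The difference was 0.33 ± 0.09, 1.26-fold higher (adjusted p = 0.00794), and the second Apom probe set gave 0.19 ± 0.08 (adjusted p = 0.0891). On chow Apom had 4732 to 5905 units in knockout livers and 3877 to 5184 in wild-type livers, a difference of 0.20 ± 0.09 (adjusted p = 0.201). The interaction did not pass the test (0.13 ± 0.13, adjusted p = 0.703).

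Apoe and Apoa1, like Apoa2, sit at the top of the array's scale, where neighbouring ranks are separated by fixed steps after quantile normalization. Apoe ranged over 18376 to 20012 units in knockout VLF livers and 17138 to 18725 in wild-type VLF livers. On chow it ranged over 17731 to 19175 units in knockout livers and 18130 to 20012 in wild-type livers, so that all groups overlapped. Its genotype difference on the diet was 0.07 ± 0.04 (adjusted p = 0.17), or -0.02 on the deposited values as they are, and its diet change in the knockout was 0.04 ± 0.04 (adjusted p = 0.517). With hybridization controls that diet change was 0.31 and called (adjusted p = 0.0291).

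Apoa1, the main HDL protein, was among the 5 brightest probe sets on every array, and all 5 knockout VLF livers took the same normalized value of 23258 units. Its deposited values were 24191, 22640, 22287, 22795 and 22698 in knockout VLF livers and 21167, 23533, 21221, 20637 and 22611 in wild-type VLF livers. These overlapped, and the genotype difference on the diet was 0.07 ± 0.04 (adjusted p = 0.13). Of the other three Apoa1 probe sets, the dimmest gave 0.20 ± 0.05 (adjusted p = 0.00235), another 0.14 ± 0.05 (adjusted p = 0.0372) and the last 0.10 ± 0.04 (adjusted p = 0.0917). The 4 probe sets of Apoa1 thus differ in whether they pass the test, and all have a positive sign. With hybridization controls the diet change in the knockout was 0.40 and called (adjusted p = 0.00835).

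Neighbouring apolipoprotein genes differed in the size of their changes. On chromosome 9 the order in the RefSeq annotation (GRCm38.p6) is Apoa1, Apoc3, Apoa4 and Apoa5, 4 consecutive protein-coding genes. Within that group the diet change in the knockout was 0.09 ± 0.04 for Apoa1, 0.04 ± 0.04 for Apoc3, 2.87 ± 0.22 for Apoa4 and -0.07 ± 0.08 for Apoa5, of which Apoa4 alone was called. With hybridization controls Apoa1 (0.40, adjusted p = 0.00835), Apoc3 (0.32, adjusted p = 0.0101) and Apoa4 (3.20) were all called higher, and Apoa5 was 0.26 (adjusted p = 0.0793). On chromosome 7 the order is Apoc2, Apoc4, Apoc1 and Apoe, with Gm44805 between Apoc2 and Apoc4. Apoc4, another C apolipoprotein that is not one of the 10 members, averaged 8906 units in knockout VLF livers and 11123 in wild-type VLF livers (-0.32 ± 0.05, adjusted p = 5.21e-05). Apoc4 and Apoc1 were thus lower in knockout than in wild-type VLF livers, though -0.08 and -0.05 without a call with hybridization controls, while Apoc2 beside them was higher and Apoe was not called. Apoa2 lies on chromosome 1, Apob on chromosome 12 and Apom on chromosome 17.

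**Figure D4:**
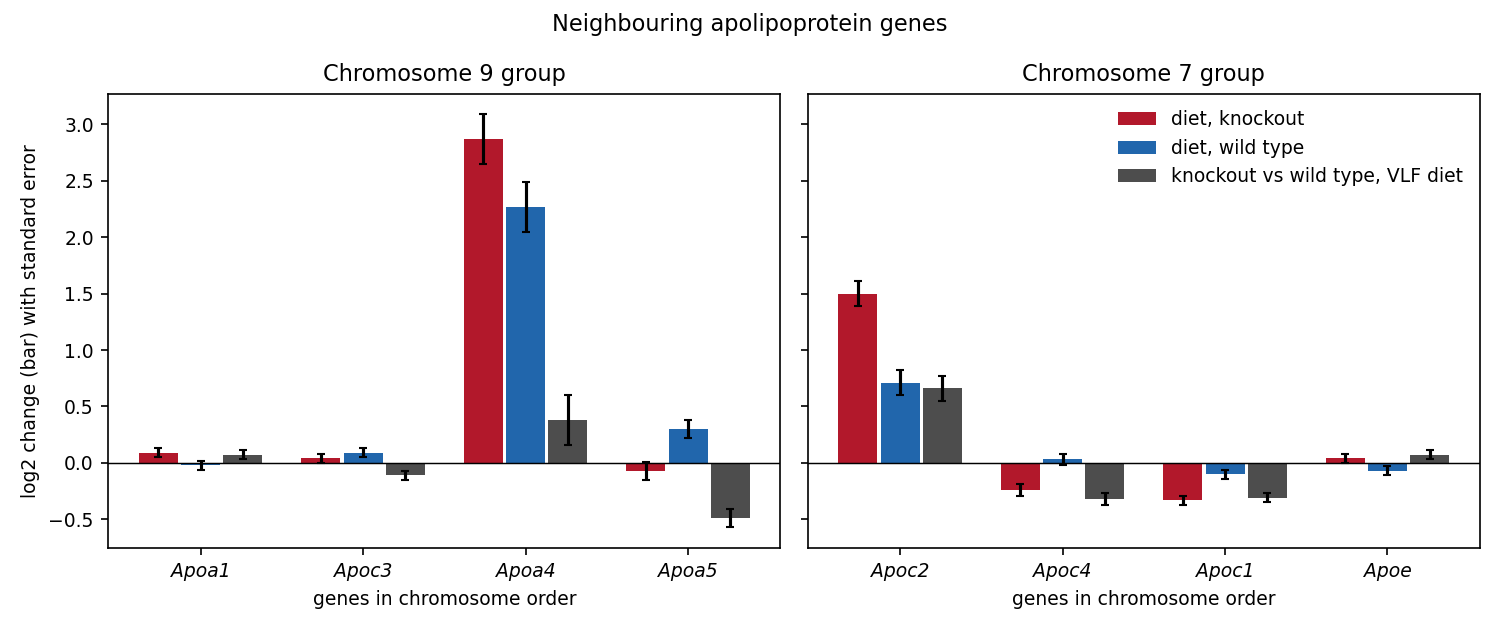
Log2 change with standard error (y axis) of the neighbouring apolipoprotein genes of chromosomes 9 and 7, in chromosome order (x axis), for the diet in the knockout, the diet in wild type, and knockout against wild type on the VLF diet. Apoa4 and Apoc2 stand out upward in both diet comparisons, at 2.87 and 1.5 in the knockout and 2.27 and 0.71 in wild type.

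The genes whose pattern over the 20 livers came closest to each of the 3 most variable members were found by the root mean square difference of centred log2 values, over 16186 genes. Closest to Apoa4 were Fabp5 (0.56), a fatty acid binding protein, Pgd (0.66), an enzyme of the pentose phosphate pathway, and Morc4 (0.76). Between diets in the knockout and in wild type, Fabp5 changed by 2.01 and 1.84, against 2.87 and 2.27 for Apoa4. Pgd changed by 2.69 and 1.2, and Morc4 by 1.74 and 0.67. Between genotypes on the VLF diet Fabp5, Pgd and Morc4 differed by -0.1, 1.72 and 0.95, against 0.38 for Apoa4. Closest to Apoc2 were Ctsd (0.23), a lysosomal protease, Tkt (0.26), a pentose phosphate enzyme, and Gstm2 (0.26), a glutathione transferase. Ctsd changed between diets by 1.34 in the knockout and 0.29 in wild type, Tkt by 1.08 and 0.66, and Gstm2 by 1.39 and 0.84. Closest to Apoa5 were Lmtk3 (0.12), Atp5c1 (0.13), a subunit of ATP synthase, and Dock6 (0.13). The group means of Apoa5 span only 0.49 log2 units, so small differences are easily reached there.

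The other genes of the pathway moved in both directions in knockout against wild-type VLF livers, and as with the members fewer falls were called with hybridization controls. Of all genes 19.2% were called higher and 23.0% lower in this comparison with quantile-normalized values. Of 17 other apolipoproteins and lipoprotein-associated proteins measured, 4 rose and 9 fell, with a median of -0.31 against -0.06 for all genes (5 rose and 4 fell with hybridization controls, median -0.05 against 0.13). Saa1 (2.88) and Saa2 (1.92, adjusted p = 0.0471 by limma), acute-phase HDL proteins, Apobec1 (1.04), the enzyme that edits Apob mRNA, and Clu (0.68) rose. Pon1 (-2.19), the HDL paraoxonase, fell most, ahead of Apol7a (-1.86), Saa4 (-1.55) and Apon (-1.06). Knockout chow livers varied widely, with means of 2798.3 units for Saa1 (SD 4558.2) and 1717.9 for Saa2 (SD 3325.5). These means lay above those of knockout VLF livers, 2232.9 and 492.9 units.

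Of 20 assembly and secretion genes, 6 rose and 9 fell, with a median of -0.25 (6 rose and 4 fell with hybridization controls, median 0.08, and 6 rose and 5 fell with median scaling). Vmp1 (1.08), Pdia3 (0.94), Surf4 (0.83), a cargo receptor of the early secretory pathway, and Sec23b (0.60) rose. Ces1d (-3.21), a carboxylesterase that hydrolyses liver triglyceride, Aadac (-0.94), Cideb (-0.81) and Tm6sf2 (-0.71) fell, Tm6sf2 without a call with hybridization controls (-0.32). Mttp, which loads lipid onto Apob, did not pass the test (-0.25 ± 0.10, adjusted p = 0.0657).

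Of 9 genes of lipolysis and plasma remodelling, 1 rose and 6 fell, with a median of -0.61 (2 rose and 4 fell with hybridization controls, median -0.41). Lpl, the lipase that Apoc2 activates, averaged 2727.5 units in knockout VLF livers and 185.5 in wild-type VLF livers, 14.5-fold higher (3.85 ± 0.20, adjusted p = 6.73e-11). Lpl is also made by macrophages, whose markers rose in the same livers, and their part in its rise was not tested. Lipg (-1.84), Pltp (-1.26), which transfers phospholipid to HDL, Angptl8 (-1.22) and Pcsk6 (-0.89) fell, as did Lcat (-0.61), the HDL enzyme that Apoa1 activates. With hybridization controls Angptl8 was not called (-0.84, adjusted p = 0.0617). Pltp rose in wild type on the diet (1.23 ± 0.21, adjusted p = 0.00582), where it averaged 1842 units on the VLF diet and 786 on chow.

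Of 17 receptors and transporters, 6 rose and 4 fell, with a median of -0.10 (7 rose and 1 fell with hybridization controls, median 0.24). Lrp8 (1.47), an Apoe receptor, Scarb1 (0.64), the HDL receptor, Sorl1 (0.48) and Abca1 (0.46), which loads lipid onto Apoa1, rose. Abcg8 (-0.94), Lrpap1 (-0.79), Lrp1 (-0.52) and Lrp6 (-0.48) fell, and of these Abcg8 alone was called with hybridization controls. Of 26 transcription factors and cofactors that act at apolipoprotein promoters, 2 rose and 17 fell, with a median of -0.44 (4 rose and 9 fell with hybridization controls, median -0.11). Ppargc1a (1.59) and Rora (0.46) rose, and Cebpa (-2.02), Srebf1 (-1.93), Mlxipl (-1.68) and Onecut1 (-1.56) fell. Ppara fell by 1.52 and Hnf4a by 0.31 on the log2 scale, the fall of Hnf4a without a call with hybridization controls (-0.08), while Creb3l3, which drives Apoa4 in mouse liver, did not pass the test (-0.04 ± 0.10, adjusted p = 0.987).

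Between diets in the knockout the same 5 lists had 3 higher and 9 lower of 17, 6 and 9 of 20, 1 and 4 of 9, 5 and 3 of 17, and 2 and 15 of 26, where 17.0% of all genes were higher and 17.7% lower. With hybridization controls these were 4 and 4, 7 and 2, 3 and 2, 8 and 0, and 4 and 7. Creb3l3 fell there (-0.31 ± 0.10, adjusted p = 0.0235), where Apoa4 was higher, but was -0.01 with hybridization controls. Its part in the change of Apoa4 was not tested. In wild type between diets, where 1.58% of all genes were called, 3 genes of these lists passed. These were Pltp, Onecut1 (1.42) and Mia3 (-0.57, not called with hybridization controls). Between genotypes on chow, where 2.92% of all genes were called, 0 of each list passed by limma with quantile-normalized values or hybridization controls. In the same order, median scaling called 3, 2, 1, 1 and 1 genes of these lists on chow and the deposited values 2, 2, 0, 1 and 1, all of them higher.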

How the data were processed

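RNA of 20 individual livers was hybridized to Mouse430 2.0 arrays. The deposited values are linear intensities, 1 per probe set and array, and MAS5 and RMA are named in the submitters' processing notes without saying which made them. Their medians per array are 32.2 to 36.6. Each array was brought to the same median, values under 16 were set to 16, and the table was put on the log2 scale and quantile-normalized. The 64 control probe sets were left out, and 45037 were tested, and the 9117 at the floor on all arrays were kept in the adjustment as not called. One limma 3.58.1 fit (R 4.3.3) of the 4 group means gave every comparison, with p-values adjusted by Benjamini-Hochberg over all probe sets and tested on simulated data. Genes took their brightest probe set, named by GEO's platform table. Start-site windows come from RefSeq (GRCm38.p6). The alternatives were other scalings, floors, probe sets, variance models, a replicate block and each array left out. The members and gene lists were chosen with earlier results of these data known. All 10 members are named, and of each list the 4 largest called changes each way, with Mttp, Pltp, Lcat, Lpl, Hnf4a, Creb3l3 and Ppara. The lists are those of the pathway and markers of hepatocytes, macrophages, enterocytes, stellate cells, cholangiocytes, endothelium and neutrophils. List genes that had no single-gene probe set here were not analysed here.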

Additional observations from a re-analysis of the deposited data

Results flagged for a closer look

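The 5 members whose diet response differed between the genotypes by the interaction test were Apoc2 (0.80), Apoa2 (-0.44), Apob (-0.42), Apoa5 (-0.37) and Apoc1 (-0.23), on the log2 scale of the knockout's diet change minus the wild type's. With hybridization controls only the Apoc2 interaction of these kept its call.

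In 8 of the 39 tested sets of 5 livers, 1 per gene and group and without the knockout VLF set of Apoa1, whose values are equal, a single liver stood apart by Dixon's test, whose critical value for 5 is 0.71 and which chance exceeds in about 1 in 20 sets. Apoa4 in knockout chow replicate 3 had 2094 units (gap ratio 0.739). Apom in knockout VLF replicate 3 had 4185 units (0.727), and Apoe in the same liver had 20012 units (0.779). Apoc3 stood low in knockout VLF replicate 4 at 13563 units (0.783) and high in wild-type chow replicate 4 at 15747 units (0.731). Apob was high in wild-type VLF replicate 2 at 10952 units (0.723), and Apoa5 was low in wild-type VLF replicate 5 at 7606 units (0.799). Apoa1 in knockout chow replicate 2 had 21003 units against a shared value of 22063 in the other four livers (gap ratio 1), 1 of the steps at the top of the normalized scale.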

How the results depend on the processing

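Of 590 values recomputed under processing alternatives, 533 kept their direction and their side of the threshold, 16 lost the call, 13 gained one, 7 reversed and 21 changed sign without being called in either setting. More of them came from centring on the hybridization controls than from any other single setting. Under it 3 members were called between genotypes on the VLF diet (2 higher, 1 lower), 5 between diets in the knockout (all higher, with Apoa1 at 0.40, Apoc3 at 0.32 and Apoe at 0.31 gaining calls), 1 between diets in wild type and 2 for the interaction, both higher. The shares of all genes called under it were not counted. The same centring reversed Apoc3 between genotypes on the VLF diet (0.05), Apob (0.07) and Apoc1 (0.01) between diets in the knockout, and the interactions of Apoa5 (0.00) and Apoc1 (0.13), and the cause was not tested. Between diets in the knockout, Apob was 0.00 as the mean of its probe sets and 0.29 by the dimmer one, an alternative chosen after seeing the data. Leaving out 1 array in turn gave 6 to 7 members called between genotypes on the VLF diet, 0 to 0 on chow, 5 to 5 between diets in the knockout, 2 to 2 in wild type and 4 to 6 for the interaction. Same-numbered arrays did not deviate together, as 5 of 30 pairs had a correlation over 0.1 (range -0.25 to 0.27). With the replicate number as a block, 6, 0, 5, 2 and 5 members were called in the same order of comparisons, and Apoc3 between genotypes on the VLF diet (adjusted p = 0.0736) was the call lost. The gene lists were recounted under the other scalings, a choice made after seeing the data. Signals near the top of the scale limit Apoa1, Apoa2 and Apoe.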

Other observations

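Some markers of stellate cells, cholangiocytes, neutrophils, endothelium and hepatocytes were also called between knockout and wild-type VLF livers. Of all genes 42.2% were called in this comparison with quantile-normalized values (19.2% higher and 23.0% lower). Of 8 stellate cell markers 5 rose and 1 fell, with a summed level of 4864 to 6196 units in knockout VLF livers and 2613 to 3107 in wild-type VLF livers. Of 5 cholangiocyte markers 2 rose, and of 5 neutrophil markers 2 rose, while of 6 endothelial markers 1 rose and 3 fell. Of 8 hepatocyte markers 1 rose (Ambp) and 3 fell (Asgr1, Hnf4a and Fgb). With hybridization controls 6 and 0 of the stellate, 2 and 0 of the cholangiocyte, 2 and 0 of the neutrophil, 1 and 0 of the endothelial and 2 and 1 of the hepatocyte markers rose and fell. Median scaling gave 5 and 0 of the stellate and 2 and 2 of the hepatocyte markers. On chow 0 markers of these lists differed between genotypes by limma with quantile-normalized values or hybridization controls. Median scaling called 1 hepatocyte and 3 macrophage markers higher on chow, and the deposited values 1 macrophage marker higher and 1 cholangiocyte marker lower.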
